A study of Mus musculus with 18 samples.

Results

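The 4 mature miRNAs described here are the arms of 2 mouse hairpins, mmu-miR-28a-5p and mmu-miR-28a-3p from Mir28a and mmu-miR-151-5p and mmu-miR-151-3p from Mir151. They were taken by name from the 2042 miRNA names of the deposited table, and the prefix mmu, for mouse, is left out from here on. All libraries came from C2C12 cells, mouse myoblasts that can fuse into myotubes in low serum. The 18 small RNA libraries form 6 groups of 3: eluates of a bait carrying the 3'UTR of MRTF-A, eluates of an MS2 control, and input, from differentiated and from undifferentiated cells for each. The labels name no allele, transgene or drug in any group, and no further genotype. They give growth with 10% FCS and differentiation for 7 days with 2% HS. The state of a library was taken from its title, because the treatment text is the same for both states. In the pull-down, called miTRAP, MS2 hairpins in the bait transcript let a coat protein anchor it to amylose beads, and miRNAs that bind to it from cell extract are recovered in the eluate. The MS2 control lacks the 3'UTR. MRTF-A, encoded by Mrtfa, is a coactivator of serum response factor.

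A miRNA hairpin is cut into a duplex whose arms, called 5p and 3p after the end of the hairpin they come from, can each be loaded into an Argonaute protein. Usually one arm is loaded and the other is degraded. The loaded arm pairs with a target 3'UTR mainly through its seed, bases 2 to 8. The miR-28 family is counted with miR-151 and miR-708 among related hairpins. In human colorectal cancer cells the 2 arms of miR-28 have been reported to act on different targets, and in human liver cancer miR-151 has been studied together with its host gene, which encodes focal adhesion kinase. Mir28a lies at chr16:24827855-24827940 of GRCm38, on the plus strand, in an intron of Lpp on the same strand. Lpp encodes a LIM-domain protein of focal adhesions. Mir151 lies at chr15:73254815-73254882 on the minus strand, in an intron of Ptk2, the gene of focal adhesion kinase, on the same strand. It also lies in an intron of the antisense gene 1700085D07Rik on the opposite strand.

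Mature sequences in RefSeq (GRCm38.p6) matched 2 of the 4 members, the arms of miR-28a. They are shown with the sequence of miR-708-5p, because, among the 1603 table names with a RefSeq sequence, it is the only other one whose bases 2 to 8 equal those of a miR-28a arm. Capitals mark bases 2 to 8.
miR-28a-5p: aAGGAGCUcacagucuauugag
miR-28a-3p: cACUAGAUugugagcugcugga
miR-708-5p: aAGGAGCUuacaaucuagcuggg
Counted from the 5' end, miR-708-5p matched miR-28a-5p at 16 of the 22 positions compared, and the substitutions from miR-28a-5p to miR-708-5p were C9U, G13A, U18G, U19C, G20U and A21G. Of the family's other names in the table, miR-708-3p had 16 reads over all 18 libraries, miR-28c had 13, miR-28b had 7 and miR-708-5p had 2. The members had 13178 reads for miR-151-3p, 6574 for miR-28a-3p, 2885 for miR-28a-5p and 1963 for miR-151-5p. At this depth the family in these cells was read almost wholly from Mir28a and Mir151. The sources used here do not state how reads matching more than 1 name were assigned.

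The longest annotated 3'UTR of Mrtfa (1004 bases) holds 2 matches to bases 2 to 7 of miR-28a-5p, written GCTCCT on the DNA strand of the transcript, and none to bases 2 to 8 (AGCTCCT). Both are shown with their surroundings because they are the only matches to bases 2 to 7 of a miR-28a arm in that 3'UTR. They are on the minus strand of GRCm38, and capitals mark the match.
Mrtfa 3'UTR bases 56 to 79, chr15:81013206-81013229: ccatacccagtgtacGCTCCTgtg
Mrtfa 3'UTR bases 703 to 726, chr15:81012559-81012582: ctgccctgcttcctgGCTCCTgag
The 3'UTR holds no match to bases 2 to 7 of miR-28a-3p, TCTAGT. Among 3'UTRs at least as long, cut to the same length, GCTCCT occurred in 30.7%, AGCTCCT in 9.99% and TCTAGT in 19.0%. Only the transcript strand was searched. The sources used here do not state the exact bait, so these are matches in the annotated 3'UTR and not necessarily in the bait.

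The libraries differed in kind as well as in state. Recovered depth was 107165 to 544504 reads in bait eluates, 15562 to 39695 in MS2 control eluates and 294112 to 860828 in input. The authors' normalisation factors were 0.341 to 0.634 in bait eluates, 1.24 to 2.37 in MS2 controls and 0.701 to 1.48 in input, so a level in CPM carries a scaling that moves with the kind of library. CPM here is taken over the effective library size, that is the read total times the factor. The MS2 controls fell into 2 kinds that cross the states. Human-named miRNAs took 0.755% to 0.930% of the reads in differentiated controls A and B and undifferentiated control A, and 0.0900% to 0.115% in differentiated control C and undifferentiated controls B and C. Log2 fold changes of the 4 arms in bait against control are given for both kinds. Using only the controls of few human-named reads leaves control C alone in differentiated cells. Using only the others leaves control A alone in undifferentiated cells. The 6 skeletal muscle markers, miR-1a-3p, miR-133a-3p, miR-133b-3p, miR-206-3p, miR-208b-3p and miR-499-5p, summed to 575536 to 644565 CPM in differentiated and 441 to 1809 CPM in undifferentiated bait eluates. In input they summed to 48696 to 77883 CPM in differentiated and 431 to 3441 CPM in undifferentiated cells. Lists of blood, epithelial, neural, endothelial and liver markers summed to at most 262 CPM in any library, and the 5 blood markers in the table had no read in any eluate. Letters A, B and C name the libraries of a group, and no label says that the same letter marks related libraries in different groups. Separate cultures are not mentioned in any label. All p-values therefore speak of the spread among libraries alone, and that spread could be technical.

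The arms of miR-28a traded places between input and bait eluates. miR-28a-5p was read at 1770.0, 1689 and 1373 CPM in differentiated bait eluates and at 1916, 2999 and 2710 CPM in undifferentiated ones. In the MS2 controls it had 33.2, 34.3 and 0 CPM in differentiated and 32.8, 142 and 0 CPM in undifferentiated cells, which are 2 reads in all and 13 reads in all. Input held 174, 109 and 101 CPM in differentiated and 454, 456 and 789 CPM in undifferentiated cells. All 6 bait eluates therefore lay above all 6 inputs and all 6 controls. In rank, miR-28a-5p was number 48 in each differentiated and 27 to 32 in the undifferentiated bait eluates, against 116 to 145 and 87 to 97 in the inputs of the same states. The order of the group means ran from undifferentiated bait, differentiated bait, undifferentiated input and differentiated input to the MS2 controls. Neighbouring groups in this order did not overlap until differentiated input and the controls, which did. How common it is among all miRNAs that groups do not overlap was not counted, here or for the arms below.

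miR-28a-3p ran the other way. It had 78.5, 133 and 82.3 CPM in differentiated and 230 (15 reads), 266 and 189 CPM in undifferentiated bait eluates. The controls had 0, 0 and 81.2 CPM in differentiated and 131, 154 and 0 CPM in undifferentiated cells. Input held 1006, 1050.3 and 602 CPM in differentiated and 2588, 4498 and 4244 CPM in undifferentiated cells. All 6 inputs lay above all 6 bait eluates. Neighbours in the order of group means did not overlap, apart from those among differentiated bait eluates and the controls.

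miR-151-3p was the most abundant of the 4 arms in both input groups and the second in both bait groups. It had 1312, 1473 and 1414 CPM in differentiated and 1073, 1130 (136 reads) and 1437 CPM in undifferentiated bait eluates. The controls had 266, 240 (7 reads) and 569 CPM in differentiated and 1214, 973 and 1622 CPM in undifferentiated cells. Input held 2620 (1427 reads), 3059 and 1723 CPM in differentiated and 5162, 3834 and 7750 (4678 reads) CPM in undifferentiated cells. Differentiated controls were the lowest group and overlapped no other. Undifferentiated controls and both bait groups overlapped.

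miR-151-5p had the narrowest range of group means of the 4 arms, 126 to 799 CPM. It had 471, 470 (141 reads) and 478 CPM in differentiated and 169, 83.1 and 126 CPM in undifferentiated bait eluates. The controls had 199, 68.7 and 379 CPM in differentiated and 164, 190 (16 reads) and 277 CPM in undifferentiated cells. Input held 327, 323 and 245 CPM in differentiated and 822, 617 and 958 CPM in undifferentiated cells. Differentiated bait eluates lay above differentiated input, and undifferentiated bait eluates lay below undifferentiated input. The 6 controls overlapped with each other and with both undifferentiated bait and differentiated input.

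**Figure D1:**
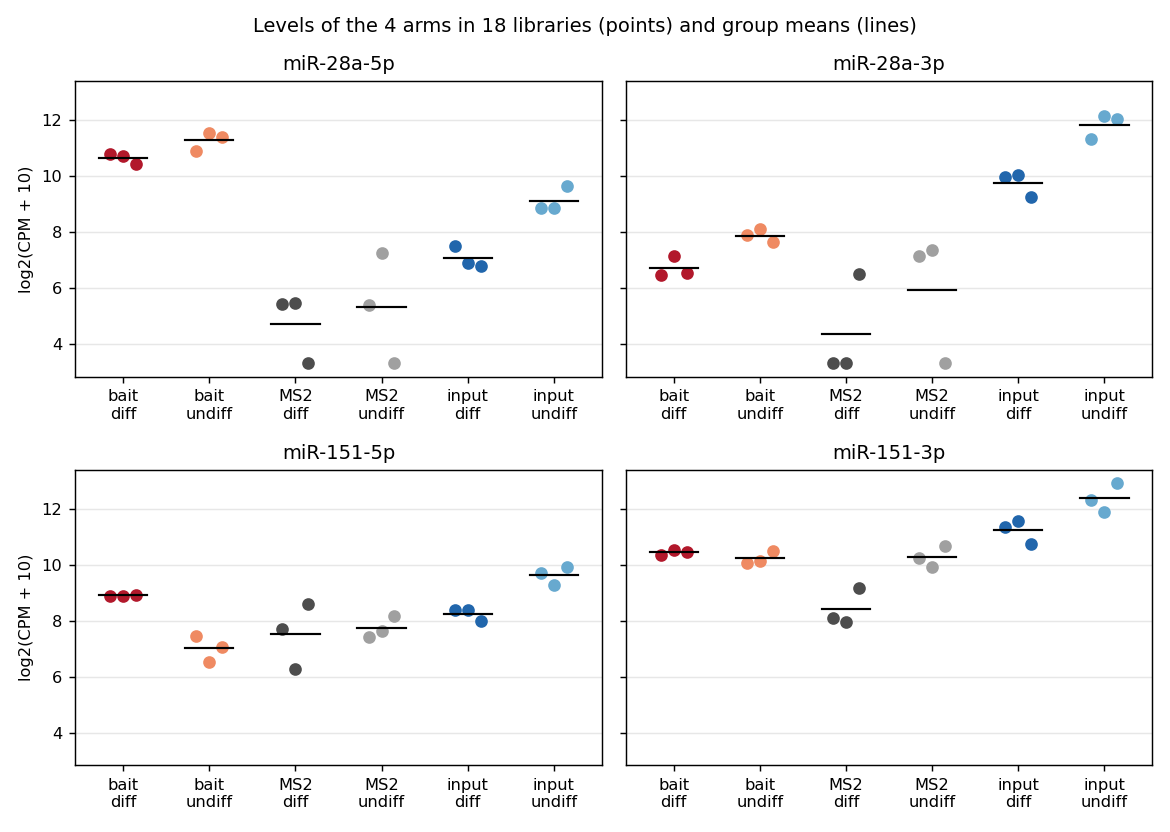
Each point is 1 library and each line a group mean, on the log2(CPM + 10) scale, for the 4 arms. In bait eluates miR-28a-5p lies above every input library, and miR-28a-3p lies below every input library.

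Within a library the ratio of the arms does not depend on how the library is scaled, apart from the pseudocount. The 5p arm took 95.8%, 92.7% and 94.3% of the reads of miR-28a in differentiated bait eluates and 89.3%, 91.9% and 93.5% in undifferentiated ones. In input it took 14.8%, 9.40% and 14.4% in differentiated and 14.9%, 9.20% and 15.7% in undifferentiated cells. The exact 95% binomial intervals, which cover counting error only, were 82.9% to 93.9% for the lowest bait eluate and 12.8% to 17.3% for undifferentiated input A. The groups of bait eluates and of inputs were thus far apart in every library. A share can carry the cloning efficiency of the 2 sequences, so only its changes between groups are compared.

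On log2((5p + 10)/(3p + 10)), where 10 CPM is the pseudocount, the arm ratio of miR-28a was higher in bait eluates than in input by 6.63 ± 0.95 (SE) in differentiated cells and by 6.13 ± 0.95 in undifferentiated cells (n = 3 libraries per group). limma over the 52 hairpins with both arms tested gave Benjamini-Hochberg adjusted p of 6.05e-07 in differentiated and 1.88e-06 in undifferentiated cells. Of those hairpins, 69.2% passed the threshold in differentiated and 55.8% in undifferentiated cells, so an arm ratio that differs between bait eluate and input was the usual case. In size, miR-28a ranked number 7 in differentiated and number 8 in undifferentiated cells. Its neighbours in rank in differentiated cells were miR-34b (7.70) and miR-7068 (6.72) above it and miR-25 (6.16) and miR-23b (4.58) below it. In undifferentiated cells they were miR-25 (6.26) and miR-770 (6.25) above it and miR-350 (5.72) and miR-23b (5.54) below it. The more abundant arm was 3p in input and 5p in bait eluates for 13 of the 52 hairpins in differentiated and for 12 in undifferentiated cells, and miR-28a was one of them in both states. The opposite switch, from 5p to 3p, occurred for 7 hairpins in differentiated and 5 in undifferentiated cells. Some switches rest on few bait reads, such as 5 for miR-15b in differentiated and 2 for miR-770 in undifferentiated cells.

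The arm ratio of miR-28a in input differed between states by 0.03 ± 0.95 (adjusted p = 0.974; 11.5% of hairpins passed), an interval too wide to show that it did not move. The difference between the states' bait effects on the ratio was 0.49 ± 1.34 (adjusted p = 0.808). These errors are shared with the MS2 controls, where few reads of miR-28a were found. Without the control libraries, a setting chosen after the data were seen, the SE of the input difference was 0.40 and the bait effects kept their size. In the controls the 5p arm had 2 of 5 reads in differentiated and 13 of 30 in undifferentiated cells, with exact 95% intervals of 5.27% to 85.3% and 25.5% to 62.6%. On these few reads the ratio was also higher in control eluates than in input, a contrast added after the data were seen. The difference was 3.05 ± 0.95 in differentiated cells (limma adjusted p = 0.00655; 67.3% of hairpins passed). There controls A and B each held 1 read of 5p and 0 of 3p, at log2 ratios of 2.11 and 2.15. Control C, with 0 and 3 reads, was at -3.19, beside -3.16 to -2.46 in the inputs. In undifferentiated cells the difference was 2.11 ± 0.95 (adjusted p = 0.0548; 51.9% passed). No other setting was examined for miR-28a in control against input. Against these controls the ratio was higher in bait eluates by 3.58 ± 0.95 in differentiated cells (adjusted p = 0.00219; 59.6% of hairpins passed) and by 4.02 ± 0.95 in undifferentiated cells (adjusted p = 8.70e-04; 34.6% passed). Neither call was kept in a quasi-binomial fit to the reads, which gave 4.58 (adjusted p = 0.499) and 3.89 (adjusted p = 0.148). In differentiated cells the estimate was 1.80 without control C and 7.12 with control C alone.

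**Figure D2:**
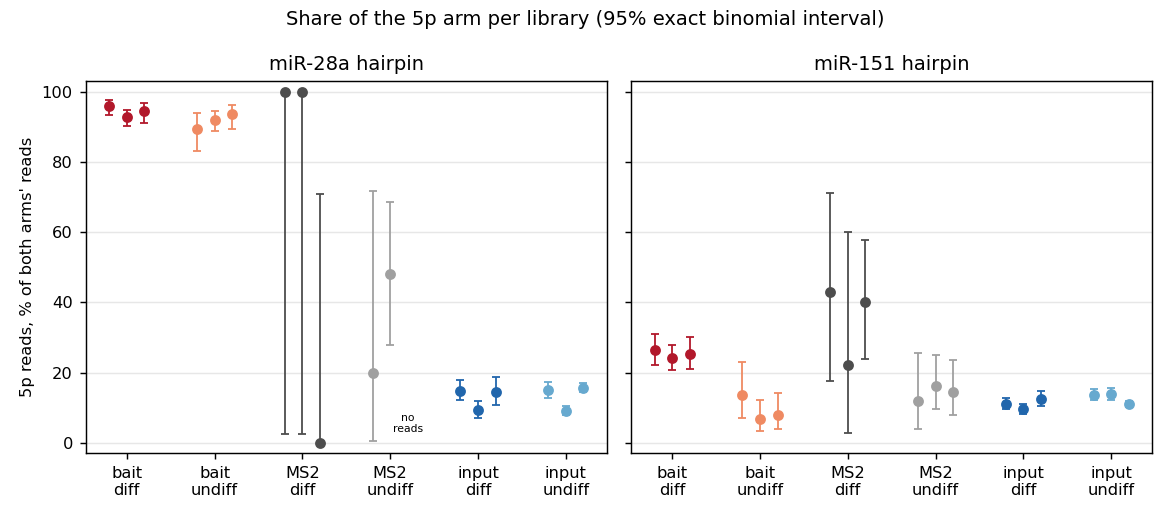
Share of the 5p arm in the reads of each hairpin, in percent, 1 point per library with its exact 95% binomial interval. For miR-28a all bait eluates lie at 89.3% or above and all inputs at 15.7% or below, and 1 control had no read of either arm.

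The miR-151 hairpin was read mostly from its 3p arm in every library. The 5p share was 26.4%, 24.2% and 25.3% in differentiated and 13.6%, 6.85% and 8.06% in undifferentiated bait eluates. It was 42.9%, 22.2% and 40.0% in differentiated controls, on 58 reads of both arms together, and 11.9%, 16.3% and 14.6% in undifferentiated controls, on 229 reads. In input it was 11.1%, 9.56% and 12.5% in differentiated and 13.7%, 13.9% and 11.0% in undifferentiated cells. The differentiated eluates of both kinds thus lay above all undifferentiated libraries and all inputs. How many other hairpins did so was not counted.

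In differentiated cells the arm ratio of miR-151 was higher in bait eluates than in input by 1.43 ± 0.50 (adjusted p = 0.0139), number 23 of the 52 hairpins, beside a median of 0.84 over all of them. Leaving out differentiated input B ended this call (1.32, adjusted p = 0.0549). In undifferentiated cells the difference was -0.46 ± 0.50 (adjusted p = 0.459). The test of the difference between states gave 1.89 ± 0.71 and did not pass (adjusted p = 0.132), while 1.92% of hairpins did. It passed without the control libraries (1.89 ± 0.48, adjusted p = 0.0163) and in the quasi-binomial fit (1.99, adjusted p = 0.0175). Between the bait eluates themselves, the ratio was higher in differentiated cells by 1.66 ± 0.50 (adjusted p = 0.0240; 19.2% of hairpins passed), number 5 of 52. That call was lost without differentiated bait library A (1.62) or B (1.71), and with a pseudocount of 1 CPM (1.74, adjusted p = 0.127).

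Between MS2 control eluates the ratio of miR-151 was higher in differentiated cells by 1.66 ± 0.50 (adjusted p = 0.0169; 21.2% of hairpins passed), a contrast added after the data were seen. That call was lost with a pseudocount of 1 CPM (1.66, adjusted p = 0.0695), in the quasi-binomial fit (1.81, adjusted p = 0.595) and without differentiated control A (1.42, adjusted p = 0.0519). Control eluate exceeded input by 2.10 ± 0.50 in differentiated cells (adjusted p = 7.94e-04; 67.3% passed), and by 0.21 ± 0.50 in undifferentiated cells (adjusted p = 0.747; 51.9% passed). Bait and control eluates of the same state differed by -0.66 ± 0.50 in differentiated and -0.67 ± 0.50 in undifferentiated cells (adjusted p = 0.269 and 0.296). Whether control against input differed between the states was not tested, nor was the part of the 3'UTR in any of these differences.

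**Figure D3:**
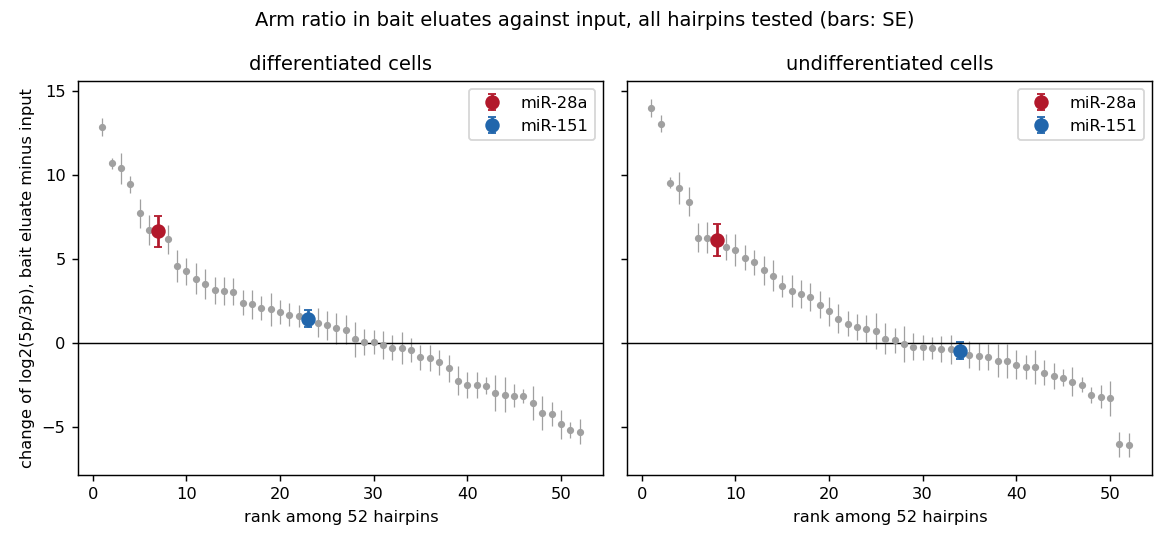
Change of the log2 ratio of the 5p over the 3p arm between bait eluate and input for the 52 hairpins, ordered by size, with standard errors. miR-28a is number 7 in differentiated and number 8 in undifferentiated cells, and miR-151 is number 23 in differentiated cells.

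Against the MS2 control, miR-28a-5p was the member recovered most with the bait, in both states. Its log2 fold change, on the log2(CPM + 10) scale, was 5.91 ± 0.84 (SE) in differentiated cells (limma adjusted p = 3.96e-05) and 5.96 ± 0.84 in undifferentiated cells (adjusted p = 4.24e-05). It was number 14 of 169 miRNAs tested in differentiated and number 12 in undifferentiated cells. As the controls hold so few reads, the ratio of pooled reads per effective size is the plainer value. It was 78.4 in differentiated cells with an exact 95% interval of 21.6 to 648, against 2 control reads, and 32.9 in undifferentiated cells (19.1 to 62.1), against 13 control reads of which 12 were in library B. With only the controls of few human-named reads the fold change was 7.33 in differentiated and 6.01 in undifferentiated cells, and with only the others it was 5.20 and 5.87. The 7.33 was set against control C alone, with 0 reads of miR-28a-5p. The 5.87 was set against control A alone, with 1 read.

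The other 3 members had smaller fold changes. In differentiated cells miR-151-3p rose by 2.04 ± 0.35 (adjusted p = 1.61e-04) and miR-151-5p by 1.38 ± 0.54 (adjusted p = 0.0332). miR-28a-3p had 2.33 ± 1.05 (adjusted p = 0.0575). The median of all miRNAs tested was 2.37. Of them 79.3% were called and 57.4% were called higher, so 3 of 4 members called higher is near the background. In undifferentiated cells 1 of the 4 members, miR-28a-5p, was called higher, where 43.2% of all were called higher and 60.4% were called in either direction. miR-28a-3p had 1.94 ± 1.05 (adjusted p = 0.121), miR-151-5p -0.72 ± 0.54 (adjusted p = 0.264) and miR-151-3p -0.05 ± 0.35 (adjusted p = 0.925), beside a median of 1.16.

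These values moved with the control libraries used. miR-28a-3p was at 0.21 in differentiated and 2.54 in undifferentiated cells with only the controls of few human-named reads, and at 3.40 and 0.74 with only the others. Leaving out 1 library gave miR-28a-3p 1.80 to 3.40 in differentiated cells, called without control C (3.40, adjusted p = 0.0112). Both values of 3.40 rest on differentiated controls A and B, which held 0 reads of miR-28a-3p, so the pseudocount sets their level. In undifferentiated cells leaving out 1 library gave 0.63 to 2.65, with the lowest value without control C. miR-151-5p was at 0.31 in differentiated and -0.87 in undifferentiated cells with the controls of few human-named reads, and at 1.91 and -0.41 with the others. Its call in differentiated cells was kept in 2 of 6 fits that left out 1 library, and lost without bait library A, B or C (1.38, 1.38 and 1.37) or control B (0.76). It was also lost with no filter on low values, with both count tools and with RLE factors. miR-151-3p was at 1.28 in differentiated and -0.062 in undifferentiated cells with the controls of few human-named reads, and at 2.42 and -0.013 with the others.

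Scaling decides part of these values. With library totals in place of the authors' factors the median of all miRNAs was 1.18 in differentiated and -0.25 in undifferentiated cells. On that scale miR-151-5p in differentiated cells was at -0.022 and miR-151-3p was not called (0.62, adjusted p = 0.302), while in undifferentiated cells both were called lower, at -2.45 and -1.93. Of all calls, 59.8% were then higher in differentiated cells instead of 72.4%, and 46.6% in undifferentiated cells instead of 71.6%. Over 6 scalings and tools miR-28a-5p lay 3.32 to 3.98 above the median in differentiated and 3.98 to 4.80 above it in undifferentiated cells. miR-151-5p lay below the median in all of them, at -1.21 to -0.95 in differentiated and -2.20 to -1.87 in undifferentiated cells. miR-151-3p also lay below it, at -0.57 to -0.28 in differentiated and -1.68 to -1.17 in undifferentiated cells. miR-28a-3p lay at -0.64 to 0.075 in differentiated cells, on both sides of the median, and at 0.062 to 0.78 in undifferentiated cells.

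The bait effect on miR-151-3p differed between states by 2.09 ± 0.49, higher in differentiated cells (adjusted p = 0.0224), and 13.0% of miRNAs passed this test. Of those calls 63.6% were higher, and 34.4% with RLE factors. Most of it lies in the controls. Between MS2 controls miR-151-3p fell by 1.87 ± 0.35 in differentiated cells (adjusted p = 0.00172; 24.9% passed), while between bait eluates it had 0.21 ± 0.35 (adjusted p = 0.694). The difference was not called with no filter on low values, with library totals, with edgeR (2.00, adjusted p = 0.0691) or with only the controls of few human-named reads (1.35, adjusted p = 0.143). It also missed the threshold without differentiated bait library B, differentiated control B or undifferentiated control C (2.05, 1.86 and 1.90). miR-151-5p had a difference of the same size, 2.09 ± 0.77, that did not pass (adjusted p = 0.0841). It lay in the bait eluates, where miR-151-5p rose by 1.88 ± 0.54 in differentiated cells (adjusted p = 0.0165; 38.5% passed). That rise was not called without undifferentiated bait library B (1.63, adjusted p = 0.0637). The undifferentiated bait eluates held 11, 10 and 10 reads of miR-151-5p. The difference between states in the bait effect was -0.05 ± 1.19 for miR-28a-5p and 0.39 ± 1.48 for miR-28a-3p (adjusted p = 0.995 and 0.941). In the authors' deposited table the bait effect on miR-28a-5p was 6.20 in differentiated and 5.12 in undifferentiated cells, and that on miR-151-3p was 1.93 and -0.06.

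**Figure D4:**
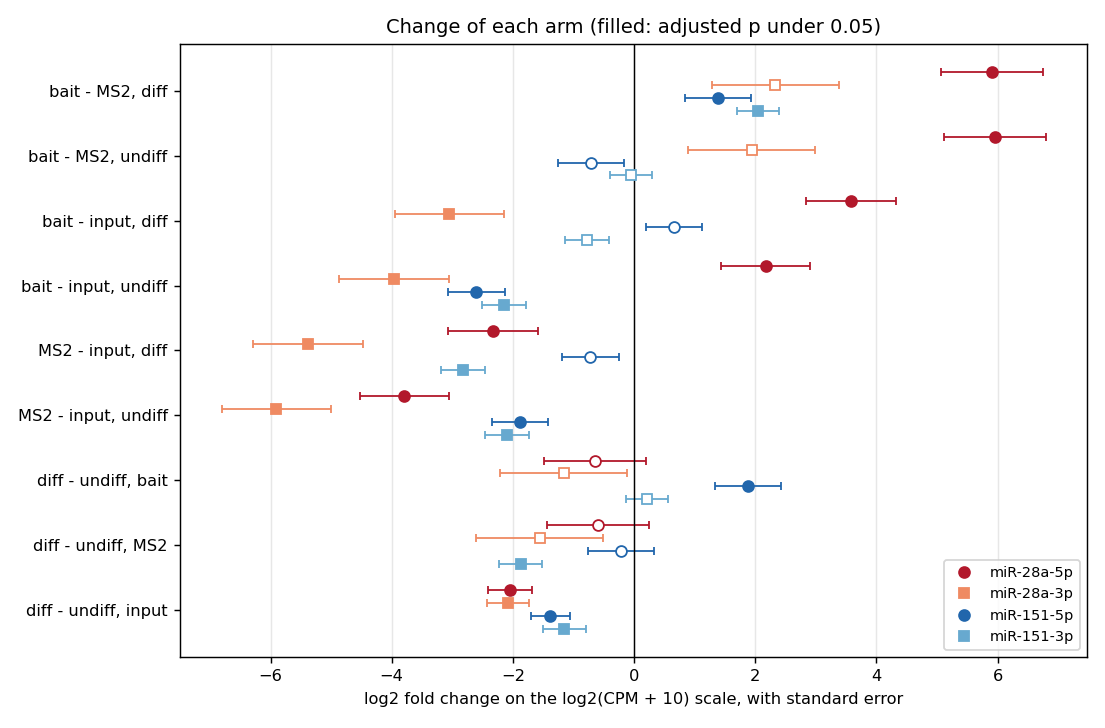
Log2 fold changes of the 4 arms, on the log2(CPM + 10) scale, with standard errors, 1 line per comparison. Filled symbols have a limma adjusted p under 0.05, and miR-28a-5p at 5.91 and 5.96 is the rightmost symbol.

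Set against input, the bait eluates held more miR-28a-5p and less miR-28a-3p in both states. miR-28a-5p rose by 3.58 ± 0.74 in differentiated cells (adjusted p = 4.34e-04) and by 2.17 ± 0.74 in undifferentiated cells (adjusted p = 0.0158). miR-28a-3p fell by 3.05 ± 0.90 in differentiated cells (adjusted p = 0.00698) and fell by 3.96 ± 0.90 in undifferentiated cells (adjusted p = 9.02e-04). With a pseudocount of 1 CPM neither fall of miR-28a-3p was called (adjusted p = 0.128 in differentiated and 0.0532 in undifferentiated cells). The share of miRNAs called was 62.0% in differentiated and 68.5% in undifferentiated cells, of 305 tested. Higher ones made up 50.3% of the calls in differentiated cells (35.6% with library totals) and 34.0% in undifferentiated cells (48.7% with RLE factors). The 2 miR-151 arms were not called in differentiated cells, with 0.66 ± 0.47 for 5p and -0.77 ± 0.36 for 3p (adjusted p = 0.231 and 0.0732). In undifferentiated cells both fell, with -2.60 ± 0.47 for 5p and -2.14 ± 0.36 for 3p (adjusted p = 1.01e-04 and 6.20e-05), beside a median of -1.04 and a share of 45.2% called lower. With RLE factors they were still called, at -1.34 and -0.86 (adjusted p = 0.0189 and 0.0217). The rise of miR-28a-5p in undifferentiated cells was lost with a pseudocount of 1 CPM (2.19, adjusted p = 0.208), with library totals (1.25, adjusted p = 0.224) and without undifferentiated bait library B (2.04, adjusted p = 0.0533). Without the MS2 controls in the fit it was 2.17 ± 0.31 (adjusted p = 2.56e-05), and miR-151-3p in differentiated cells passed (adjusted p = 0.0326). Relative to the median, miR-28a-5p lay 3.26 to 3.75 above in differentiated and 2.93 to 3.60 above in undifferentiated cells over 6 scalings and tools.

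The MS2 controls held less of most miRNAs than input. miR-28a-3p fell in both states, with -5.38 ± 0.90 in differentiated and -5.90 ± 0.90 in undifferentiated cells (adjusted p = 6.39e-05 and 2.08e-05), number 299 of 305 in both. miR-28a-5p also fell, with -2.33 ± 0.74 in differentiated and -3.79 ± 0.74 in undifferentiated cells (adjusted p = 0.0107 and 2.25e-04). The call in differentiated cells was lost without control C (-1.62, adjusted p = 0.0733). miR-151-3p had -2.82 ± 0.36 in differentiated and -2.10 ± 0.36 in undifferentiated cells (adjusted p = 5.11e-06 and 6.73e-05). miR-151-5p fell by 1.89 ± 0.47 in undifferentiated cells (adjusted p = 0.00165) and had -0.72 ± 0.47 in differentiated cells (adjusted p = 0.184). In differentiated cells it was called without control C (-1.25, adjusted p = 0.0222) and was at -0.10 without control B. So 3 of 4 members were called in differentiated and 4 of 4 in undifferentiated cells, where 69.2% and 71.1% of all miRNAs were. In undifferentiated cells 26 of 217 calls were higher, and 54 of 176 with RLE factors. With RLE factors 1 of the 4 falls in undifferentiated cells was called, that of miR-28a-3p (-4.20, adjusted p = 0.00279). The others were then -2.15 for miR-28a-5p (adjusted p = 0.0523), -0.17 for miR-151-3p and 0.000194 for miR-151-5p. In differentiated cells miR-28a-5p was not called with RLE factors (-1.72, adjusted p = 0.108), and in undifferentiated cells miR-151-5p was not called with library totals (-0.94, adjusted p = 0.200).

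In input all 4 arms were lower in differentiated than in undifferentiated cells. miR-28a-5p fell by 2.05 ± 0.36 and miR-28a-3p fell by 2.08 ± 0.35 (adjusted p = 3.51e-04 and 2.65e-04), so the arms moved by nearly the same amount. miR-151-5p fell by 1.38 ± 0.32 and miR-151-3p fell by 1.15 ± 0.36 (adjusted p = 0.00250 and 0.0132). The groups did not overlap for any of the 4, and how common this was among all miRNAs tested was not counted. Of the 313 miRNAs tested 62.3% were called and 46.3% were called lower, and the median was -0.64. The median depended on the scaling. With TMM factors of the 6 inputs alone it was -0.08, and 49.4% of the calls were then higher, in place of 25.6%. Relative to the median, miR-28a-5p lay at -1.41 to -1.32 and miR-28a-3p at -1.44 to -1.27 over 6 scalings and tools. The miR-151 arms lay closer to it, at -0.74 to -0.60 for 5p and -0.52 to -0.36 for 3p. The fall of miR-151-3p was not called with those TMM factors (-0.48, adjusted p = 0.162) or with RLE factors (-0.51, adjusted p = 0.101). It also missed the threshold without differentiated input C (-0.92) or undifferentiated input C (-0.89). In differentiated input the muscle markers were far higher, as given above. Their part in the lower relative level of the members was not tested. Fewer cells with a miRNA and less of it per cell cannot be told apart in these pools.

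Likeness was measured as the root-mean-square difference of the centred group means of log2(CPM + 10) over the 6 groups, among 368 miRNAs. It is a description, and the points share libraries and depth. Nearest to miR-28a-5p was miR-214-3p, at 0.26, followed by miR-183-5p (0.49) and miR-34a-5p (0.53). miR-214-3p, from an antisense transcript of a dynamin gene, averaged 987 CPM in differentiated and 1228 CPM in undifferentiated bait eluates, 9.03 and 33.7 CPM in the controls and 80.2 and 328 CPM in input. Its hairpin moved toward the 3p arm, with a pooled 5p share of 2.74% in differentiated and 0.850% in undifferentiated bait eluates, against 60.4% and 48.9% in input. The partner arm miR-28a-3p came only at place 195, at 2.64. Nearest to miR-28a-3p were miR-93-5p (0.62), miR-106b-3p (0.72) and miR-107-3p (0.77). Nearest to miR-151-3p were miR-30a-3p (0.27), miR-29b-3p (0.40) and miR-27b-5p (0.44). Nearest to miR-151-5p were miR-7058-5p (0.47), miR-1249-3p (0.51) and miR-182-5p (0.56), with miR-151-3p at place 24 (0.83). The miR-151 arms thus resembled each other in profile more than the miR-28a arms did.

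**Figure D5:**
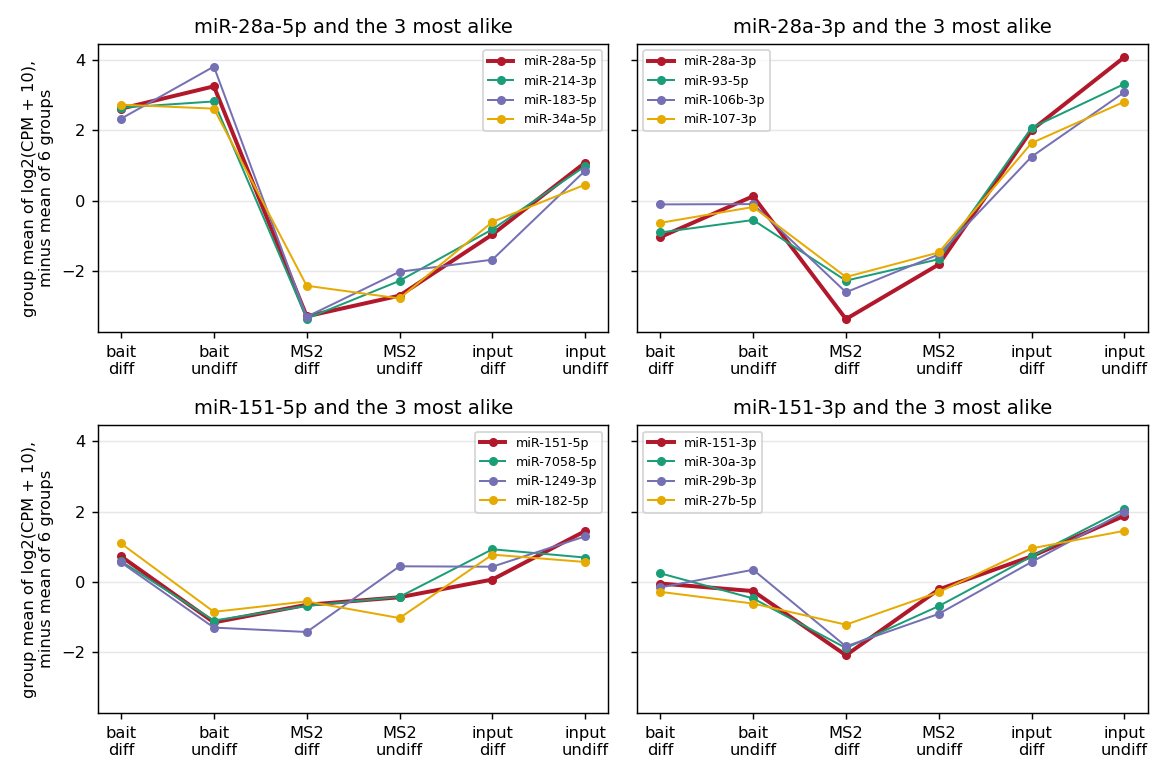
Group means of log2(CPM + 10), each miRNA centred on its own mean over the 6 groups, for each member (thick line) and its 3 nearest miRNAs. The line of miR-28a-5p peaks in bait eluates and that of miR-28a-3p in input.

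The mature sequences of the 3 miRNAs nearest to miR-28a-5p are shown because their recovery was alike while their seeds, in capitals, were not.
miR-214-3p: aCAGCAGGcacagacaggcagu
miR-183-5p: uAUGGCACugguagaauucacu
miR-34a-5p: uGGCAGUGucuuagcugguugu
None of these 3 shares bases 2 to 8 with a miR-28a arm or with another of them. In the annotated Mrtfa 3'UTR, miR-183-5p has 2 matches to bases 2 to 7 and miR-214-3p has 1, while miR-34a-5p has 0, and none of the 3 has a match to bases 2 to 8. Among 3'UTRs at least as long, cut to the same length, matches to bases 2 to 7 occurred in 28.6% for miR-183-5p. They occurred in 45.8% for miR-214-3p and 25.9% for miR-34a-5p. Longer matches in the Mrtfa 3'UTR were counted for 1679 mouse mature miRNAs in RefSeq. Of them 14.8% have one to bases 2 to 8, or one to bases 2 to 7 followed by an A. A match is a description of letters and says nothing of what held these miRNAs on the bait.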

How the data were processed

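cutadapt 1.4.2, Bowtie2 2.0.13, featureCounts 1.4.6, edgeR 3.18.1 and the build GRCm38/mm10 are named in the submitters' processing notes, with no role or setting. The deposited signal is the authors' normalised CPM per miRNA and library. Each value was a whole multiple of 1 read's worth within 0.01 read (100% of values), so reads were recovered. The authors' deposited table also holds log2 fold changes and p-values with FDR, used only where named. Columns carry no label number and were mapped to groups only.

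limma 3.58.1 (R 4.3.3) with a trend was run on log2(CPM + 10) for names kept by edgeR's filterByExpr. Benjamini-Hochberg adjustment ran over all names tested (313 in the fit of 6 inputs, 169 in that of 12 eluates, 305 in that of 18 libraries), with a threshold of 0.05. Fold changes of low miRNAs can come out smaller or larger on this scale than in a count model. For miR-28a-5p, bait against control was 5.91 in differentiated and 5.96 in undifferentiated cells, and 6.18 and 5.12 with edgeR. Arm ratios were fitted over 52 hairpins in 18 libraries. Alternatives were other pseudocounts, filters and scalings, edgeR 4.0.16 and DESeq2 1.42.0 on the recovered reads, a quasi-binomial fit, a block, and leaving out libraries. Between inputs the count tests called 201 (edgeR) and 182 (DESeq2) miRNAs, and limma called 195. The fits were tested on simulated data. The members are picked out by name alone, but they, the relatives and the marker lists were chosen with earlier results of these data known. The text names the members, their relatives, miRNAs with a member's seed, the 3 most alike to each member, and hairpins beside a member in rank. Libraries of 1 group always differed beyond counting noise (lowest chi-square over its degrees of freedom 3.90). Intervals cover counting error only.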

Additional observations from a re-analysis of the deposited data

Results flagged for a closer look

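The bait effect on miR-151-3p differed between the states by the test of that difference itself. It was 2.04 ± 0.35 in differentiated and -0.05 ± 0.35 in undifferentiated cells (SE, n = 3 libraries per group), a difference of 2.09 ± 0.49 (limma adjusted p = 0.0224). All 3 differentiated bait eluates lay above all 3 differentiated controls, while the undifferentiated groups overlapped. How common this was among all miRNAs tested was not counted. The adjusted p was 0.00498 to 0.174 over the other settings. The differentiated controls behind it hold 8, 7 and 21 reads of miR-151-3p, and the undifferentiated ones 37, 82 and 76. For bait against control in differentiated cells 79.3% of all miRNAs tested were called, with a median of 2.37.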

How the results depend on the processing

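Precision was limited by the MS2 controls, where 1 read of a differentiated library was worth 27.1 to 34.3 CPM and miR-28a had few reads. The rise of miR-28a-5p against the control held under the 11 settings run and without any single library (4.55 to 7.33 in differentiated, 4.44 to 7.21 in undifferentiated cells), and so did the arm ratio of miR-28a in bait eluate against input under 6 settings (5.88 to 6.84 and 5.84 to 6.21). The settings that use only controls with more human-named reads, or no controls, were chosen after seeing the data. The cause of the changes below was not tested. Adjusted p-values are limma's unless another tool is named.

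Signs turned for small values. With library totals miR-151-5p was at -0.022 for bait against control and -0.50 for bait against input in differentiated cells. The state difference of the bait effect on miR-28a-5p was 0.027 with a pseudocount of 1, 0.50 with library totals, 0.27 with TMM of the fitted libraries, 1.06 with edgeR, 1.13 with DESeq2 and 1.33 with only controls of few human-named reads. For miR-28a-3p it was -0.089 with a pseudocount of 50 and -2.34 with those controls. Between bait eluates miR-151-3p was -0.20 with RLE. Between controls miR-28a-5p was 0.032 with those of more human-named reads, miR-28a-3p 1.17 with those of few, and miR-151-5p 0.068 with edgeR, 0.065 with DESeq2 and 0.70 with those of few. Control against input, miR-151-5p was 0.000194 in undifferentiated and 0.086 in differentiated cells with RLE, and 0.35 in differentiated cells with few human-named reads. The arm ratio of miR-28a in input was -0.035 with a pseudocount of 1 and -0.12 in the quasi-binomial fit.

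Calls on arm ratios changed as follows. For miR-28a against the control, a pseudocount of 1 gave 2.77 in differentiated and 4.15 in undifferentiated cells, and the quasi-binomial fit 4.58 and 3.89, none called. For miR-151 the state difference was called in the quasi-binomial fit (1.99) and without controls (1.89). Its difference between bait eluates was not called with a pseudocount of 1 (1.74), nor that between controls with a pseudocount of 1 (1.66) or the quasi-binomial fit (1.81).

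Of the 4 members, bait against control called 3 with library totals in undifferentiated cells (1 as reported) and 1 in differentiated cells (3 as reported). Of all 169 miRNAs tested, library totals called 118 in undifferentiated and 122 in differentiated cells. The state difference, with 1 as reported, called 0 with no filter, 0 with library totals, 0 with edgeR, 0 with few and 2 with more human-named reads. Between bait eluates, with 1 as reported, it was 0 with no filter, 0 with library totals and 2 without controls. Between controls, with 1 as reported, it was 0 with few and 2 with more human-named reads. Against input, a pseudocount of 1 called 2 in undifferentiated (4 as reported) and 1 in differentiated bait eluates (2 as reported), and RLE called 1 in undifferentiated controls (4 as reported). Over all 169 miRNAs the state difference called 22, with 14 by library totals, 0 by edgeR and 38 with a pseudocount of 50. Between bait eluates library totals called 45 of 169, and RLE called 176 of 305 in undifferentiated controls against input. Shares over all miRNAs are not given for the remaining settings, so those counts are no result about the members. Hairpins called in bait against control were 18 in undifferentiated cells, with 4 in the quasi-binomial fit and 41 with few human-named reads, and 31 in differentiated cells, with 4 in the quasi-binomial fit. With no filter more than 52 hairpins are tested, so its counts (for bait against input 128 in differentiated and 112 in undifferentiated cells, against control 124 and 78) cannot be set against those of the 52.

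Leaving out 1 library at a time gave these ranges. Bait against control for miR-151-3p in undifferentiated cells was -0.22 to 0.15. The state difference was -1.01 to 0.96 for miR-28a-5p and -0.32 to 1.70 for miR-28a-3p. Between controls miR-28a-5p was -1.59 to 0.37 and miR-151-5p -0.75 to 0.41. The arm ratio of miR-28a in input was -0.24 to 0.26. For the arm ratio of miR-151 the ranges were -1.06 to -0.42 for bait against control and 1.32 to 1.54 for bait against input in differentiated cells, 1.69 to 2.19 for the state difference (called only without undifferentiated bait A), 1.46 to 1.97 between bait eluates and 1.42 to 2.05 between controls. Members called were 0 to 2 for the state difference.

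Columns share suffixes across groups, which are not label numbers. The correlations given here are of deviations of each library's log levels from its group mean, over 166 miRNAs with at least 500 reads. They are not correlations of whole profiles. Between differentiated input and bait, these deviations correlated at 0.192 to 0.549 for same-suffix libraries. For libraries of those groups with different suffixes they correlated at -0.561 to 0.417. Deviations within a group cancel out, so positive same-suffix values push the others down, and part of this contrast is built in. Between bait and control, same-suffix libraries correlated at 0.0446 to 0.233 in differentiated and -0.0295 to 0.230 in undifferentiated cells. The values for input and bait are at most a hint of pairing from the data. The block changed no member's call in bait against input. With the replicate block, miR-28a-3p was called in differentiated bait against control (2.33 ± 0.93, adjusted p = 0.0424), and the state difference called 9 miRNAs in place of 22.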
